A study of Homo sapiens with 6 samples.

Results

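The mRNAs of the general translation machinery were followed after knockdown of EIF5A2, itself a translation factor, in SKOV3 cells, a human epithelial ovarian cancer cell line. The genes described are the protein-coding genes whose symbol starts with EIF or EEF, together with the release and recycling factors ETF1, GSPT1, GSPT2 and ABCE1, the ABC protein ABCF1 and the cytoplasmic poly(A)-binding proteins PABPC1 and PABPC4. EIF5A, EIF5A2, EIF5AL1 and the eIF2 kinase genes (EIF2AK) were left out. This gave 72 members among the 58825 gene identifiers of the table. Cells received either a negative control siRNA (NC) or si-EIF5A2 (the knockdown libraries), and RNA was taken after 48 h from 3 samples per group. Both groups went through transfection, so NC is not an untreated culture, and the knockdown rests on a single siRNA in a single cell line. The labels do not say that the samples came from separate cultures, so p-values measure only the spread between these samples, which may be technical. EIF5A2 itself had 27.8, 29.8 and 29.9 CPM in the NC libraries and 2.76, 4.04 and 4.27 CPM in the knockdown libraries, a log2 fold change of -2.98 ± 0.179 (SE, edgeR adjusted p = 1.60e-05).

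Translation of a capped mRNA starts when eIF4F, made of the cap-binding protein eIF4E, the scaffold eIF4G and the helicase eIF4A, brings the mRNA to a small ribosomal subunit that carries eIF3, eIF1, eIF1A and the ternary complex of eIF2, GTP and the initiator tRNA. The eIF4E-binding proteins block eIF4F when mTOR does not phosphorylate them, and eIF2B recharges eIF2 with GTP. In elongation, eEF1A delivers aminoacyl-tRNA and eEF2 moves the ribosome along, and at a stop codon eRF1 (ETF1) and eRF3 (GSPT1, GSPT2) release the protein before ABCE1 splits the ribosome.

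Many mRNAs of this machinery begin with a 5′ terminal oligopyrimidine (TOP) tract, a C followed by a run of pyrimidines, through which mTOR and LARP1 control their translation. Start sites were read from the RefSeq promoter table (GRCh38.p14), which held 52 of the members tested. Of these, 13 (25%) had at least 1 listed start with a C and 4 or more further pyrimidines (C or T) directly after it, read on the strand of the gene, against 5.14% of all genes and 4.07% of all 35116 promoters in the table. The stretches shown run from 10 bases before to 20 bases from the start, with the pyrimidine run in capitals. They comprise abundant elongation factors and eIF3 subunits with a run, followed by members without one whose mRNA rose or fell in the results. The latter were picked by their results and are 5 of the 39 tested members without a run. The display is therefore no comparison of members with and without a run.
EEF1A1, chr6:73521013-73521042, minus strand: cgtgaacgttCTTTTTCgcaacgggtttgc
EEF2, chr19:3985444-3985473, minus strand: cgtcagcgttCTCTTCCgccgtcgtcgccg
EIF3D, chr22:36529147-36529176, minus strand: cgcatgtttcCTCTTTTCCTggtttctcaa
EIF3F, chr11:7987327-7987356, plus strand: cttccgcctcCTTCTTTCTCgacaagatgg
EIF3M, chr11:32583821-32583850, plus strand: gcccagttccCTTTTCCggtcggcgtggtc
EIF3B, chr7:2354817-2354846, plus strand: tcgcacgcacatggctgggctgtagccgtc
EIF2B2, chr14:75002911-75002940, plus strand: cgcccgccccggaagtgcaaactgtgtggt
EEF2K, chr16:22206268-22206297, plus strand: gcccgcttctgctcaacctagaccagcccc
EEFSEC, chr3:128153471-128153500, plus strand: ggcgggccgggcgggtgtccgaggcggcgg
ETF1, chr5:138543217-138543246, minus strand: aggaagtgatgtcacaggccccatgtgagc
ETF1 has a further listed start, also without a run. EIF3H, EIF3L and EIF4EBP1 were not among the 52 tested members held by the promoter table, so no start is shown for them.

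The libraries held 46900204 to 74142267 estimated counts, and small counts cluster at steps of about 3.76, so that a sequenced fragment appears to be worth several counts. A count of 0 was read as up to 3 fragments, a floor of 0.152 to 0.241 CPM (counts per unit of sequencing depth, scaled by edgeR's TMM factors) that covers counting error only. Across 16208 genes tested, the log2 CPM values correlated at r = 0.964 to 0.974 within groups and 0.929 to 0.938 between groups. A gene counted as called when its fold change exceeded 1.5 and its adjusted p (edgeR quasi-likelihood test, Benjamini-Hochberg over all genes tested) was under 0.05. Of the epithelial markers, KRT8 had 659, 604 and 561 CPM in NC and 383, 349 and 398 CPM in knockdown libraries and KRT7 had 407, 385 and 355 CPM in NC and 207, 201 and 218 CPM in knockdown libraries, and both fell. KRT18 (-0.078), ERBB2 (-0.017) and KRT19 (-0.39, log2 fold changes) were not called, and EPCAM was low in every library (1.15 to 1.68 CPM). PTPRC, of leukocytes, and CD3E, of T cells, were at 0 in all 6 libraries. CD68, of macrophages, reached 57.3 CPM at most while CD14, of the same lineage, did not exceed 0.0565 CPM. No endothelial or fibroblast marker exceeded 2.04 CPM.

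After EIF5A2 knockdown, EIF3H, EIF3L and EIF4EBP1 had the largest differences among the called translation factor mRNAs, and all 3 were lower. Of the 67 members that passed the filter on low counts, 8 were called (11.9%), against 24.6% of all genes tested and 28.1% of the genes that averaged 10 CPM or more. EIF3H, EIF3L, EIF4EBP1, EIF2B2, EEF2K and EEFSEC fell, so 6 members (8.96%) were called lower against 13.6% of all genes. ETF1 and EIF3B rose, which is 2.99% against 11.1%. In bulk RNA, fewer cells of a type and less RNA per cell cannot be told apart. Without the limit on the fold change, 22 members passed the adjusted p (32.8%, 12 lower and 10 higher), against 36.9% of all genes tested (18.9% lower and 18.0% higher). Among genes that averaged 10 CPM or more, 49.3% passed it. The NC and knockdown libraries did not overlap for 27 members (40.3%), against 51.2% of all genes tested and 61.1% of those that averaged 10 CPM or more.

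The median absolute log2 fold change was 0.24 over the members, 0.45 over all genes tested and 0.37 over genes that averaged 10 CPM or more. A difference under 0.2 on the log2 scale was seen in 31 of 67 members (46.3%), in 25.3% of all genes tested and in 30.1% of genes that averaged 10 CPM or more. The median signed log2 fold change was -0.018 for members and -0.010 for all genes. Members were more abundant than most genes, with a median level of 204.8 CPM against 13.2 CPM over all genes tested. Genes that averaged 10 CPM or more had a median of 39.2 CPM, so they do not match the members in level either. The remaining 5 members were not tested. EIF4E1B and the readthrough genes EEF1AKMT4-ECE2 and EEF1E1-BLOC1S5 were at 0 counts in every library, and EIF4EBP3 and EIF1AY did not pass the filter.

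**Figure D1:**
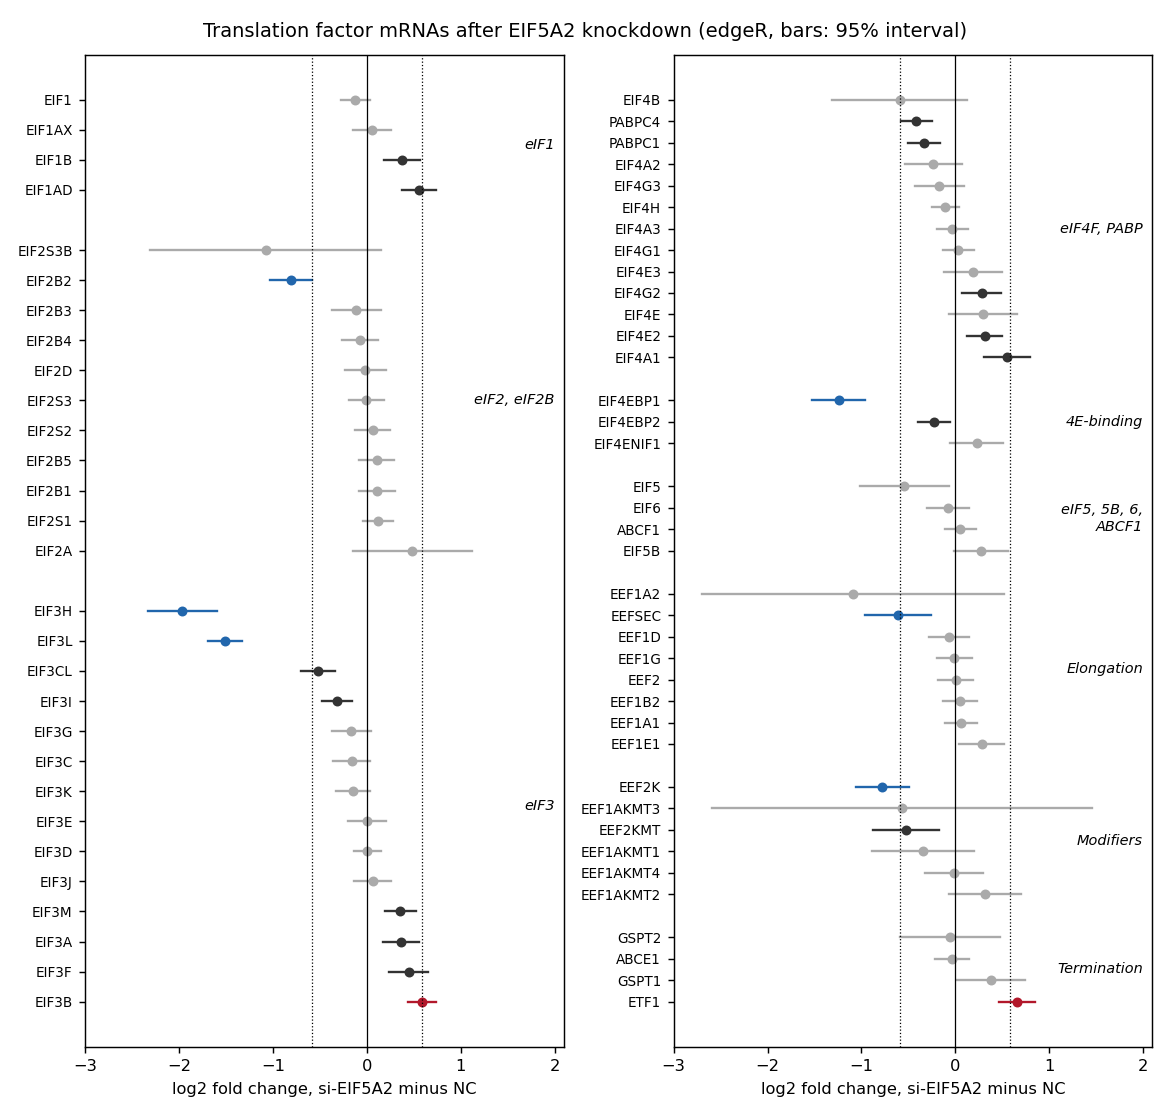
Log2 fold change (si-EIF5A2 minus NC) of the 67 members tested, grouped by role, with horizontal bars for the 95% interval from edgeR and dotted lines at a 1.5-fold change. Blue points were called lower (6), red points called higher (2), black points passed the adjusted p at a fold change under 1.5, and grey points did not pass.

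**Figure D2:**
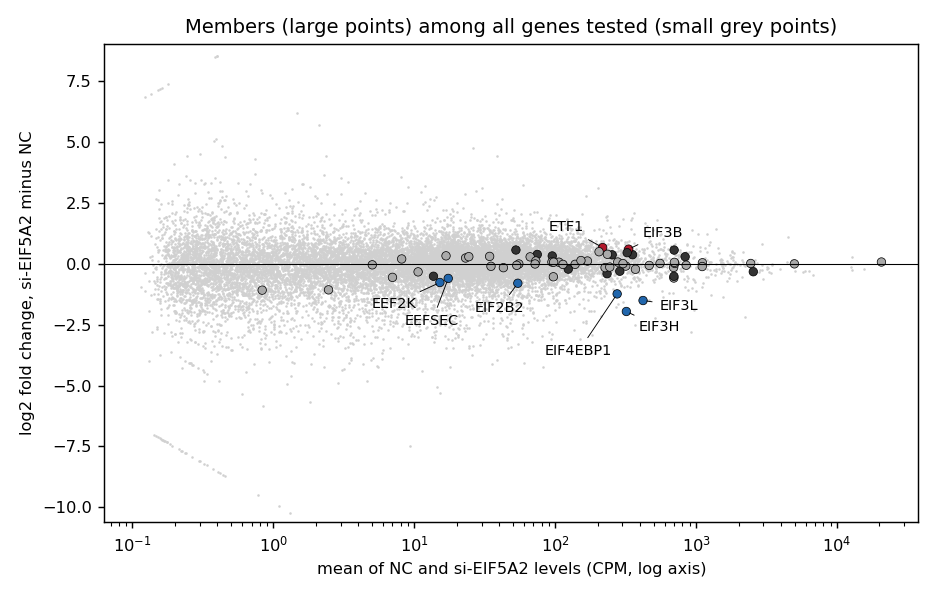
Log2 fold change against the mean level in CPM (log axis) for all 16208 genes tested (small grey points) and the members (large points, colours as for the fold changes by role). The members' median level is 204.8 CPM, 31 of the 67 lie within 0.2 of a log2 fold change of 0, and the 8 labelled ones were called.

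The eIF3 complex, the largest initiation factor and the platform that binds the small subunit, held the largest falls. EIF3H (ENSG00000147677, chr8:116642130-116766925, minus strand, GRCh38) had 549, 453 and 526 CPM in the NC libraries and 159.6, 106 and 125 CPM in the knockdown libraries. All si-EIF5A2 libraries lay far below all NC libraries, and the mean was 25.6% of that of NC. The log2 fold change was -1.97 ± 0.158 (SE, edgeR adjusted p = 9.11e-05), with a 95% interval of -2.34 to -1.60. EIF3L (ENSG00000100129, chr22:37848868-37889407, plus strand) had 587, 614 and 667 CPM in the NC libraries and 219, 227 and 207 CPM in the knockdown libraries, which is 35.0% of the NC mean, and the groups were well separated. Its log2 fold change was -1.52 ± 0.0782 (SE, edgeR adjusted p = 9.00e-06), with a 95% interval of -1.70 to -1.34. EIF3H and EIF3L belong to the core of PCI and MPN domain subunits that holds the complex together. EIF3L shares exons on its strand with ENSG00000279738, a gene of few counts (678, 239 and 48 in NC and 41, 39 and 43 in knockdown libraries), and with those counts added its log2 fold change was -1.52.

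The other core subunits had smaller differences, in both directions. EIF3E, a PCI domain subunit, had 631, 736 and 753 CPM in NC and 733, 672 and 719 CPM in knockdown libraries, overlapping groups with a log2 fold change of 0.0031 (95% interval -0.20 to 0.20). EIF3K, the partner of EIF3L, had -0.15 (95% interval -0.33 to 0.039). By contrast, EIF3M had 216, 229 and 222 CPM in NC and 302, 283 and 271 CPM in knockdown libraries, a log2 fold change of 0.36 (edgeR adjusted p = 0.00528). EIF3A, the scaffold of the complex, had 295, 305 and 329.6 CPM in NC and 421, 362 and 411 CPM in knockdown libraries, a log2 fold change of 0.36 (edgeR adjusted p = 0.0109). EIF3F, the MPN domain partner of EIF3H, had 290.4, 273 and 260.2 CPM in NC and 340.5, 368 and 413 CPM in knockdown libraries, a log2 fold change of 0.44 (edgeR adjusted p = 0.00583). In all of these the si-EIF5A2 libraries lay above the NC libraries, below the 1.5-fold limit. EIF3F has 2 named pseudogenes, whose own counts came to 17.1% to 20.8% of the EIF3F counts. EIF3C and EIF3CL are near-identical copies, so the split of reads between them is uncertain. Separately, EIF3CL had a log2 fold change of -0.52 (edgeR adjusted p = 0.00131), and -0.59 without si-EIF5A2 replicate 1, which passed the limit, while EIF3C had -0.16 (edgeR adjusted p = 0.189). Summed, they had 1552 ± 33.7 CPM in NC and 1224 ± 48.1 CPM in knockdown libraries (SD, n = 3 each), which gives a log2 fold change of -0.34 (edgeR adjusted p = 0.00379).

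In the module of EIF3B, EIF3G and EIF3I, EIF3B (ENSG00000106263, chr7:2354086-2380745, plus strand), a subunit with an RNA recognition motif and a propeller domain, rose. It had 259, 274 and 262 CPM in the NC libraries and 413, 388 and 395 CPM in the knockdown libraries, with little spread within groups, and a log2 fold change of 0.59 ± 0.0658 (SE, edgeR adjusted p = 3.10e-04). Its call sits at the 1.5-fold limit and is lost, at an unchanged direction, without NC replicate 1 (0.57), without NC replicate 3 (0.57) or without si-EIF5A2 replicate 1 (0.56). EIF3I, a propeller protein bound to EIF3B, went the other way, with 339, 309.9 and 307 CPM in NC and 254, 251 and 263 CPM in knockdown libraries and a log2 fold change of -0.32 (edgeR adjusted p = 0.00896), under the limit. EIF3G had -0.17 (edgeR adjusted p = 0.190). EIF3D, which can bind the cap of some mRNAs, was nearly level at 573, 547 and 542 CPM in NC and 556, 561 and 550.0 CPM in knockdown libraries, a log2 fold change of 0.0043 (95% interval -0.14 to 0.15), and the loosely bound EIF3J had 0.062 (95% interval -0.13 to 0.26).

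EIF3H and EIF3L, the subunits that fell most, were set against the others, so their ratios restate those falls and are no further test. Relative to the geometric mean of the 10 other eIF3 subunits (EIF3C and EIF3CL left out), EIF3H stood at log2 ratios of 0.94, 0.67 and 0.89 in NC and -0.95, -1.54 and -1.31 in knockdown libraries. The EIF3L ratios were 1.04, 1.11 and 1.24 in NC and -0.50, -0.44 and -0.58 in knockdown libraries. Both subunits were above the others' mean count in every NC library and below it in every si-EIF5A2 library. Per kilobase of exon, EIF3L had 145 CPM in NC, rank 3 of the 14 genes, and 50.7 CPM after knockdown, rank 9. EIF3H went from 79.2 CPM per kilobase, rank 8, to 20.3, rank 14, below EIF3J at 30.3. Lengths are the union of all annotated exons, so genes with many long isoforms appear lower on this scale. In all, 3 of the 14 eIF3 genes were called (21.4%, 2 lower and 1 higher), near the 24.6% of all genes tested, and over the 12 without EIF3H and EIF3L the median log2 fold change was 0.0037.

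**Figure D3:**
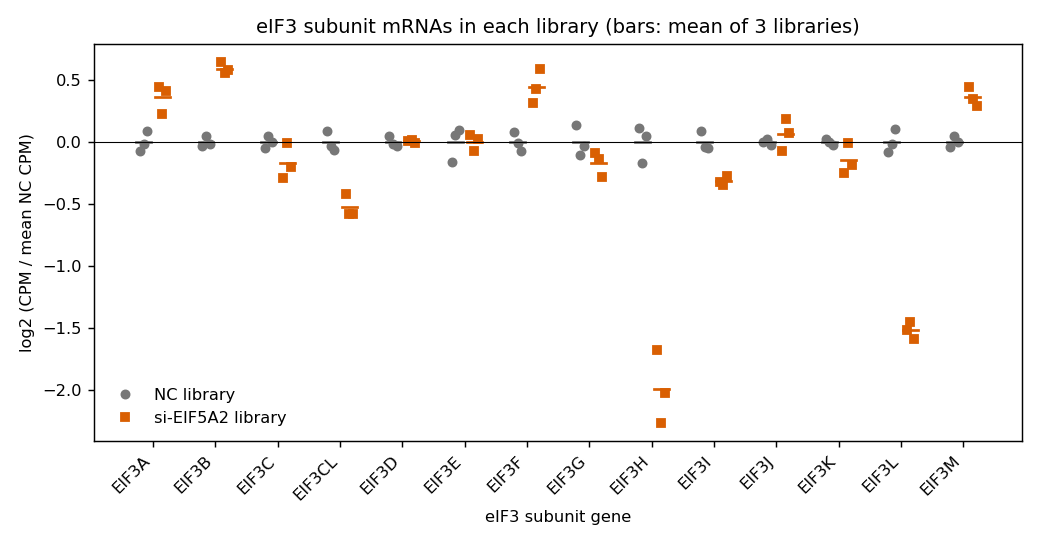
Level of each eIF3 subunit mRNA in each library as log2 of CPM over the mean NC CPM (grey circles, NC; orange squares, si-EIF5A2; short bars, mean of 3 libraries). The si-EIF5A2 libraries of EIF3H and EIF3L lie far below 0, those of EIF3CL and EIF3I below, and those of EIF3A, EIF3B, EIF3F and EIF3M above.

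Among the inhibitors that bind eIF4E, EIF4EBP1 (4E-BP1, ENSG00000187840, chr8:38030341-38060365, plus strand) fell. It had 451, 365 and 346 CPM in the NC libraries and 147, 180.4 and 163 CPM in the knockdown libraries, without overlap between the groups, and its mean was 42.2% of that of NC. The log2 fold change was -1.24 ± 0.122 (SE, edgeR adjusted p = 1.62e-04), and it ranged from -1.33 to -1.12 with any 1 library left out. EIF4EBP2, the related inhibitor, had 141, 131 and 129 CPM in NC and 117, 109 and 116 CPM in knockdown libraries, a log2 fold change of -0.23 (edgeR adjusted p = 0.0395). Per kilobase of exon, EIF4EBP2 made up 4.89% ± 0.416 of the pair in NC and 9.42% ± 1.16 in knockdown libraries (SD, n = 3 each), and EIF4EBP1 remained the more abundant of the pair. EIF4ENIF1 (4E-T), which carries eIF4E to the nucleus and to P-bodies, had 0.23 (95% interval -0.052 to 0.51).

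The eIF4F subunits and poly(A)-binding proteins held no called gene, 0 of 13 by edgeR's quasi-likelihood test, against 24.6% of all genes tested. In this group 5 had an unadjusted p under 0.05 and 1 was called by DESeq2 (EIF4B), and the median log2 fold change was -0.033. EIF4A1, the main helicase, came nearest among the higher ones with 543, 555 and 602 CPM in NC and 702, 902 and 887 CPM in knockdown libraries. Every si-EIF5A2 library was above every NC library, at a log2 fold change of 0.55 ± 0.106 (SE, edgeR adjusted p = 0.00467), which passed the limit without NC replicate 3 (0.59) or without si-EIF5A2 replicate 1 (0.65). It shares exons with ENSG00000264772, and summed with the genes that overlap it the value was 0.55. EIF4A2, the close relative of EIF4A1, had 341, 373 and 489.6 CPM in NC and 352, 336 and 335 CPM in knockdown libraries, and EIF4A3, the helicase of the exon junction complex, had a log2 fold change of -0.033 (95% interval -0.20 to 0.13). EIF4E, which binds the cap, had 31.0, 27.8 and 33.6 CPM in NC and 44.4, 39.2 and 29.6 CPM in knockdown libraries, and its 95% interval (-0.068 to 0.65) holds both no change and a rise past the limit. Its named pseudogenes had counts of their own equal to 22.6% to 27.9% of the EIF4E counts. EIF4E2 (4EHP), which binds caps without recruiting eIF4G, had 0.31 (edgeR adjusted p = 0.0179), and EIF4G2 (DAP5), which lacks the eIF4E site, had 0.28 (edgeR adjusted p = 0.0411). The scaffold EIF4G1 had 0.031 (95% interval -0.13 to 0.20), and its relative EIF4G3, the eIF4A cofactor EIF4H and the cap-binding EIF4E3 did not pass the test.

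The poly(A)-binding proteins, which join the mRNA tail to eIF4G, both had lower values. PABPC1 had 2888, 2777 and 2859.9 CPM in NC and 2450.1, 2136 and 2167 CPM in knockdown libraries, a log2 fold change of -0.34 (edgeR adjusted p = 0.00814), and PABPC4 had 282, 262 and 257 CPM in NC and 199, 192 and 209 CPM in knockdown libraries, a log2 fold change of -0.42 (edgeR adjusted p = 0.00280). Neither group pair overlapped, and both stayed under the 1.5-fold limit. EIF4B, which stimulates eIF4A, varied within groups, with 954, 563 and 991 CPM in NC and 607, 657 and 397 CPM in knockdown libraries. NC replicate 2 lay near the si-EIF5A2 libraries, and the groups overlapped. The log2 fold change was -0.59 ± 0.289 (SE, edgeR adjusted p = 0.175), and it was called without NC replicate 2 (-0.81, edgeR adjusted p = 0.0374) and with DESeq2 (-0.59, adjusted p = 0.0253).

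Of the factors that bring in the initiator tRNA or recharge eIF2 with GTP, EIF2B2, the beta subunit of the eIF2B exchange factor, fell. EIF2B2 (ENSG00000119718, chr14:75002911-75012366, plus strand) had 61.9, 71.9 and 73.6 CPM in the NC libraries and 38.9, 41.8 and 37.7 CPM in the knockdown libraries, 57.1% of the NC mean, and its groups did not overlap. Its log2 fold change was -0.81 ± 0.0963 (SE, edgeR adjusted p = 4.24e-04). The other eIF2B subunits had log2 fold changes of 0.10 (EIF2B1), -0.11 (EIF2B3), -0.073 (EIF2B4) and 0.10 (EIF2B5), and none passed the test. Against the mean log2 count of these 4, EIF2B2 stood at -0.092, 0.044 and 0.043 in NC and at -0.88, -0.77 and -0.79 in knockdown libraries. EIF2B2 was set apart as the called subunit, so this comparison restates its fall. The eIF2 subunits EIF2S1, EIF2S2 and EIF2S3 lay between -0.0039 and 0.12, with 95% intervals that ran from -0.19 to 0.28. EIF2S3B, a close copy of EIF2S3, was low (at most 6.39 CPM) and uncertain, with -1.08 (edgeR adjusted p = 0.156). EIF2A, an alternative initiator tRNA carrier, had 139.9, 149 and 223 CPM in NC and 259.6, 285 and 171 CPM in knockdown libraries, overlapping groups with a log2 fold change of 0.48 (edgeR adjusted p = 0.207). EIF2D, which can also place the initiator tRNA, had -0.018 (95% interval -0.24 to 0.20). In all, 1 of the 11 genes of this group was called (9.09%, against 24.6% of all genes tested), and their median log2 fold change was -0.0039.

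The factors of start site choice held no called gene, 0 of 4 by edgeR with 2 at an unadjusted p under 0.05 and 0 called by DESeq2. With 4 genes, and 24.6% of all genes tested called, this count says little. EIF1AD, an eIF1A-like protein, had 42.7, 44.1 and 41.1 CPM in NC and 63.6, 64.9 and 59.4 CPM in knockdown libraries without overlap, a log2 fold change of 0.55 (edgeR adjusted p = 0.00111). It was just under the limit and passed it without si-EIF5A2 replicate 3 (0.59). EIF1B had 61.0, 70.1 and 64.0 CPM in NC and 81.5, 86.8 and 84.3 CPM in knockdown libraries, a log2 fold change of 0.37 (edgeR adjusted p = 0.00861), whereas its more abundant relative EIF1, which guards the start codon, had -0.12 (95% interval -0.28 to 0.032). EIF1AX, which binds the small subunit beside eIF1, had 0.054 (95% interval -0.15 to 0.26). Of the factors of subunit joining, EIF5, the GTPase-activating protein of eIF2, had 130.2, 133 and 82.5 CPM in NC and 79.3, 68.3 and 89.5 CPM in knockdown libraries, with NC replicate 3 inside the range of the si-EIF5A2 libraries. Its log2 fold change of -0.54 (edgeR adjusted p = 0.0743) became -0.74 (edgeR adjusted p = 0.00404) without NC replicate 3. EIF5B, which joins the subunits, had 0.27 (edgeR adjusted p = 0.123), EIF6, which keeps the large subunit apart, had -0.077 and ABCF1, a partner of eIF2, 0.054.

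The elongation factors proper include the members with the highest levels per kilobase of exon (EEF1A1, 3401 CPM, EEF1G, 1844 CPM, and EEF2, 606 CPM in NC), and the differences of these lay near 0. EEF1A1 had 18973, 20025 and 21682 CPM in the NC libraries and 21612, 21937 and 19799 CPM in the knockdown libraries, overlapping groups with a log2 fold change of 0.062 (95% interval -0.11 to 0.23). It alone took 1.87% to 2.18% of all counts of a library, and all members together took 4.52% to 4.88%. Its 49 named pseudogenes had counts of their own equal to 10.1% to 11.8% of the EEF1A1 counts, and reads of such copies may not be told apart. EEF2, the translocase, had 2597, 2467 and 2255 CPM in NC and 2388, 2625 and 2317 CPM in knockdown libraries, a log2 fold change of 0.0020 (95% interval -0.18 to 0.19). EEF1B2, EEF1D and EEF1G, the subunits of the exchange factor for eEF1A, had 0.048, -0.069 and -0.013, each with a 95% interval inside the 1.5-fold limit. Of the 2716 exon bases of EEF1G, 2714 overlap ENSG00000255508 on the same strand. That gene had 15277, 1274 and 537 counts in NC and 14525, 2968 and 4468 in knockdown libraries, beside 228785 to 376284 for EEF1G. The split of reads between them is therefore less certain. EEF1A2, the form of muscle and neurons, was near the floor at 0.287 to 1.58 CPM, with -1.09 (edgeR adjusted p = 0.266). EEF1E1, a scaffold of the tRNA synthetase complex, had 0.28 (edgeR adjusted p = 0.0668).

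The elongation genes that fell were a specialised factor and a kinase. EEFSEC (ENSG00000132394, chr3:128153454-128408646, plus strand), which delivers selenocysteinyl-tRNA in place of eEF1A, had 23.2, 20.7 and 19.2 CPM in the NC libraries and 11.4, 16.3 and 13.6 CPM in the knockdown libraries. The groups did not overlap, and the log2 fold change was -0.61 ± 0.153 (SE, edgeR adjusted p = 0.0153), but the call was lost without NC replicate 1 (-0.54, edgeR adjusted p = 0.0542) or si-EIF5A2 replicate 1 (-0.50). EEF2K (ENSG00000103319, chr16:22206282-22288732, plus strand), the kinase that inhibits eEF2 by phosphorylation, had 19.9, 17.2 and 20.5 CPM in the NC libraries and 12.1, 11.0 and 10.5 CPM in the knockdown libraries. It was clearly separated between the groups, with a log2 fold change of -0.78 ± 0.121 (SE, edgeR adjusted p = 0.00166) that ranged from -0.85 to -0.74 with any 1 library left out. Of the lysine methyltransferases, EEF2KMT, which acts on eEF2, had 15.6, 15.2 and 17.6 CPM in NC and 9.11, 11.9 and 12.7 CPM in knockdown libraries, a log2 fold change of -0.52 (edgeR adjusted p = 0.0284), and -0.62 without si-EIF5A2 replicate 3, past the limit. EEF1AKMT3, which acts on eEF1A, had 9.41, 6.23 and 9.46 CPM in NC and 2.25, 12.7 and 2.0 CPM in knockdown libraries, and its exons overlap ENSG00000257921 (0 counts in 4 libraries, 662 in si-EIF5A2 replicate 1 and 384 in si-EIF5A2 replicate 3). Alone its log2 fold change was -0.57 (edgeR adjusted p = 0.639), without si-EIF5A2 replicate 2 it was -1.98, and with the overlapping gene added it was 0.59 (edgeR adjusted p = 0.0662), so no direction can be given. EEF1AKMT1, EEF1AKMT2 and EEF1AKMT4 did not pass the test.

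In termination, ETF1 (ENSG00000120705, chr5:138506095-138543300, minus strand), which encodes the release factor eRF1 that reads the stop codons, rose. ETF1 had 164, 169 and 173 CPM in the NC libraries and 291, 246 and 259.7 CPM in the knockdown libraries, with every si-EIF5A2 library above every NC library, and a log2 fold change of 0.65 ± 0.0818 (SE, edgeR adjusted p = 5.33e-04). Without si-EIF5A2 replicate 1 the value was 0.58 (edgeR adjusted p = 0.00165), just under the 1.5-fold limit. Its partner GSPT1 had 177, 243 and 193 CPM in NC and 305, 269 and 222 CPM in knockdown libraries, overlapping groups with a log2 fold change of 0.38 (edgeR adjusted p = 0.0955). The low GSPT2 had -0.054 (95% interval -0.59 to 0.48), and the recycling ATPase ABCE1 had -0.036 (95% interval -0.21 to 0.14).

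**Figure D4:**
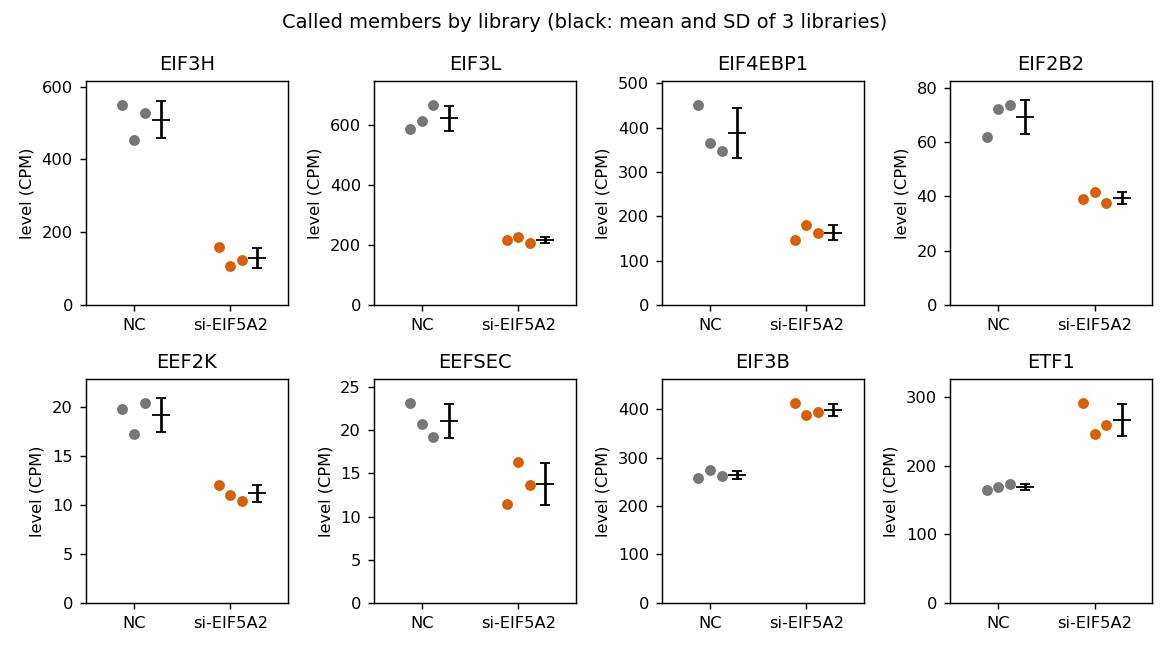
Level in CPM of the 8 called members in each library (grey, NC; orange, si-EIF5A2; black, mean and SD of 3 libraries), each axis starting at 0. In every panel the NC and si-EIF5A2 libraries are apart, with the narrowest gap in EEFSEC.

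Pairs of paralogs, genes of related sequence, were compared as ratios of counts within each library, which do not depend on library scaling. Of 9 pairs, 3 had ratios without overlap between the groups. The share over other gene pairs was not computed, and for single genes the groups did not overlap in 51.2% of all genes tested. The log2 ratio of EIF4A2 to EIF4A1 was -0.67, -0.57 and -0.30 in NC and -1.0, -1.42 and -1.41 in knockdown libraries, a difference of -0.76. For EIF4EBP2 to EIF4EBP1 the difference was 1.01, with -1.68, -1.47 and -1.43 in NC and -0.33, -0.73 and -0.49 in knockdown libraries. For EIF1B to EIF1 it was 0.50, with -4.25, -4.01 and -4.18 in NC and -3.62, -3.69 and -3.64 in knockdown libraries. In each the exact permutation test (2-sided, 3 against 3) gave p = 0.10, the smallest it allows, and 0.30 after Benjamini-Hochberg adjustment over the 9 pairs, so this test cannot reach 0.05 here. The ratios of EEF1A2 to EEF1A1, EIF4E2 to EIF4E, EIF4E3 to EIF4E, EIF4G3 to EIF4G1, GSPT2 to GSPT1 and PABPC4 to PABPC1 overlapped between the groups.

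Pyrimidine runs and matches to the siRNA were set beside the calls. Of the 13 tested members with a pyrimidine run at a start, 0 were called by edgeR, with 2 at an unadjusted p under 0.05 and 1 called by DESeq2, and of the 39 in the table without a run 5 were called, beside 24.6% of all genes tested. The called EIF3H, EIF3L and EIF4EBP1 were not in the promoter table and enter neither count, so these counts leave out the largest falls. Among 10 mRNAs known to carry a TOP tract, EIF3H was the 1 called (10%), and the median log2 fold change was -0.0056 beside -0.010 for all genes. EEF1G, of these 10, had no run at its listed start, so the listed starts can miss a known tract. The heptamer TGCCAGA, which pairs with bases 2 to 8 of the guide (antisense) strand of the siRNA, occurred on the sense strand of an annotated 3′ UTR in 11 of 67 members (16.4%) and in 19.9% of all genes tested with a 3′ UTR. None of the 8 called members (0 of 8) held it. With 8 genes, and 16.4% of members holding the heptamer, this count says little, and an effect of such matches was not tested. The longest stretch complementary to the antisense strand was 10 bases in EIF3H and 7 in EIF3L, within the members' range of 6 to 12 bases (median 8). By position, EIF3H and EIF4EBP1 lie on chromosome 8 together with EIF3E, PABPC1 and EEF1D, which were not called.

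Regulators and partners of these factors were taken from lists of genes outside the rule. Of 14 genes listed around eIF4F, 2 fell and 1 rose (21.4% called, near the 24.6% of all genes tested). The list joins mTOR and MAPK signalling genes with others such as PAIP1, PAIP2, DDX3X and DHX29. The 14 genes had a median absolute log2 fold change of 0.25, beside 0.45 over all genes tested and 0.37 over genes that averaged 10 CPM or more. Their signed median log2 fold change was -0.11. MTOR, the kinase that phosphorylates 4E-BP1, had 62.8, 70.4 and 65.2 CPM in NC and 28.1, 22.7 and 28.7 CPM in knockdown libraries and fell by 1.32 on the log2 scale (edgeR adjusted p = 8.68e-05). RPS6KB1, the S6 kinase downstream of it, had 21.5, 20.8 and 20.4 CPM in NC and 12.6, 8.30 and 14.3 CPM in knockdown libraries, a log2 fold change of -0.83 (edgeR adjusted p = 0.0108), while PAIP2, an inhibitor of poly(A)-binding protein, rose with 97.5, 105 and 70.1 CPM in NC and 170.0, 163 and 169 CPM in knockdown libraries, a log2 fold change of 0.88 (edgeR adjusted p = 0.00241). RPTOR had -0.12 and LARP1, the TOP mRNA-binding protein, -0.27 (edgeR adjusted p = 0.0126). Of 11 eIF2 kinase, kinase regulator and phosphatase genes, EIF2AK3 (PERK) rose, with 11.8, 8.10 and 10.7 CPM in NC and 18.8, 19.9 and 19.8 CPM in knockdown libraries and a log2 fold change of 0.93 (edgeR adjusted p = 0.00219). IMPACT, an inhibitor of the GCN2 pathway, fell, with 28.5, 27.8 and 18.3 CPM in NC and 14.2, 11.9 and 11.9 CPM in knockdown libraries and a log2 fold change of -0.98 (edgeR adjusted p = 0.00405). The other 9 were not called (18.2% called against 24.6%), and the median over the 11 was -0.17. Without the limit on the fold change, 6 of the 11 passed the adjusted p (54.5%, 3 lower and 3 higher). This was against 36.9% of all genes tested and 49.3% of those averaging 10 CPM or more. They include EIF2AK1 (-0.54), PPP1CA (-0.42), EIF2AK4 (0.42) and PPP1CB (0.53), all under the 1.5-fold limit. The groups did not overlap for 9 of the 11 (81.8%), against 51.2% of all genes tested and 61.1% of those averaging 10 CPM or more.

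Of 6 genes listed under selenocysteine insertion, the pathway that EEFSEC serves, 2 fell (33.3%, against 24.6% of all genes tested called), and the median log2 fold change was -0.35. SEPHS1 is on this list although the selenophosphate synthetase is SEPHS2, so its fall is not one of that enzyme. SEPHS1 had 94.5, 94.5 and 101 CPM in NC and 32.5, 34.9 and 33.6 CPM in knockdown libraries, a log2 fold change of -1.52 (edgeR adjusted p = 8.92e-06), and PSTK, which phosphorylates seryl-tRNA of selenocysteine, had 6.17, 7.89 and 5.96 CPM in NC and 4.87, 4.27 and 3.69 CPM in knockdown libraries, a log2 fold change of -0.64 (edgeR adjusted p = 0.0277). The call of PSTK was lost without NC replicate 2 (-0.50), without si-EIF5A2 replicate 2 (-0.64, edgeR adjusted p = 0.0678) and without si-EIF5A2 replicate 3 (-0.55). SEPHS2, the selenophosphate synthetase, had -0.54 (edgeR adjusted p = 0.00112), under the limit, and SECISBP2, which binds the insertion element, had -0.17 (edgeR adjusted p = 0.221). The remaining 2 had positive values, 0.031 (edgeR adjusted p = 0.898) for SEPSECS, the synthase that completes selenocysteinyl-tRNA, and 0.20 (edgeR adjusted p = 0.636) for SECISBP2L. Of 9 genes of reinitiation, rescue and recycling, 1 was called (11.1%). HBS1L, which frees stalled ribosomes with PELO, fell from 43.6, 49.5 and 51.8 CPM in NC to 16.9, 15.1 and 18.6 CPM in knockdown libraries, a log2 fold change of -1.52 ± 0.116 (SE, edgeR adjusted p = 4.72e-05). PELO itself had 0.51 (edgeR adjusted p = 0.00125), under the limit, and the median over these genes was 0.17. Of 7 genes that make diphthamide, the modified histidine of eEF2, 2 were called (28.6%). DNAJC24 had -0.73 (edgeR adjusted p = 0.0131) and DPH3 0.59 (edgeR adjusted p = 0.00699), with a median of -0.073 over the list. DNAJC24 lost its call without NC replicate 2 (-0.57), and DPH3, at the limit, lost it without NC replicate 1 (0.50), without NC replicate 2 (0.57) or without si-EIF5A2 replicate 1 (0.53).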

How the data were processed

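Per the study's methods, mRNA of SKOV3 cells was sequenced as paired-end libraries, and the authors estimated expression with StringTie and ballgown. They deposited estimated counts per gene for each library, whole numbers that are not normalized. StringTie shares fragments between overlapping transcripts, so values of overlapping genes are less certain. The submitters' processing notes name Bowtie 0.12.2 and the mouse builds mm8 and mm9, although the gene identifiers are human. The human build and annotation are not given in the sources used here. Positions, lengths, overlaps and 3′ UTRs came from GENCODE release 29 (GRCh38), which held 58552 of the 58825 identifiers, and 58472 had a symbol in the reference table.

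The estimated counts were already whole, so rounding changed nothing. edgeR 4.0.16 (R 4.3.3) was fitted on all 6 libraries with filterByExpr, TMM (factors 0.985 to 1.01), robust quasi-likelihood fits and p-values adjusted by Benjamini-Hochberg over 16208 genes. Standard errors are the log2 fold change over the square root of F, and 95% intervals use the t distribution with the fit's degrees of freedom. Depth was 46900204 to 74142267 counts.

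The members, lists and tests were chosen with earlier results of these data known. Named were called members, the 2 largest differences in each role, the paralog pairs, all eIF3 subunits and called genes of the lists, and other members beside them after their values were seen. Alternatives were DESeq2 1.42.0, RLE or no size factors, other filters and thresholds, a replicate block, counts divided by their step, and leaving out each library. Adding overlapping genes and summing EIF3C with EIF3CL were chosen after seeing the data.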

Additional observations from a re-analysis of the deposited data

How the results depend on the processing

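With 3 libraries per group, calls near the 1.5-fold limit depend on single libraries, and the standard errors of called members were 0.0658 to 0.158 on the log2 scale. The log2 fold changes of EIF3H, EIF3L, EIF4EBP1, EIF2B2 and EEF2K kept their direction and their call in all 14 settings that refit the model.

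Without the limit on the fold change, 12 members were lower and 10 higher. At the threshold of the study's methods (unadjusted p under 0.05, fold change over 2), 2370 genes passed, with 3 members lower (EIF3H, EIF3L and EIF4EBP1) and 0 higher by edgeR. Members called higher numbered 1 with no filter, with at least 10 counts in every library and with counts divided by their step, where EIF3B had 0.56, 0.58 and 0.58. With any 1 library left out, 5 to 7 members were called lower and 1 to 3 higher, 3638 to 3907 genes were called, and the members' median log2 fold change ran from -0.054 (si-EIF5A2 replicate 2 left out) to -0.0053. With the replicate number as a block, 3731 genes, 6 members lower and 2 higher were called, and no member changed its call. DESeq2 called 4338 genes. The labels do not say whether same-numbered libraries were prepared together. Their deviations from the group means correlated at r = -0.0244, 0.00522 and -0.00269, and no library correlated best with its own number. Such low values cannot show that the libraries were unpaired.

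Some values near 0 changed sign, and the cause was not tested. With no filter, at least 10 counts in every library and counts divided by their step, EIF3D had -0.027, -0.0064 and -0.0025 and EIF3E had -0.028, -0.0075 and -0.0035. EIF4G1 had -0.00064 with no filter. With 1 library left out, the ranges were -0.020 to 0.028 for EIF3D, -0.073 to 0.043 for EIF3E, -0.0011 to 0.12 for EIF3J, -0.011 to 0.086 for EIF4G1 and -0.22 to 0.16 for GSPT2. EEF1AKMT3 had 0.59 with its overlapping gene added, by construction of that setting. The difference in the log2 ratio of EIF4E2 to EIF4E ran from -0.16 (si-EIF5A2 replicate 3 left out) to 0.22, with -0.070 when NC replicate 3 was left out, and that of EIF4E3 to EIF4E from -0.30 to 0.085 (si-EIF5A2 replicate 1 left out).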

Other observations

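The factors that translate mitochondrial mRNAs, which have their own initiation, elongation and release proteins, had a median absolute log2 fold change of 0.25. This was beside 0.45 over all genes tested and 0.37 over genes that averaged 10 CPM or more. Of 10 genes listed, MTRF1L, a mitochondrial release factor, was the 1 called (24.6% of all genes tested were called), with 22.8, 34.0 and 36.5 CPM in NC and 53.4, 49.5 and 51.1 CPM in knockdown libraries and a log2 fold change of 0.72 (edgeR adjusted p = 0.0118), and it had 0.54 without NC replicate 1, under the limit. TUFM, the mitochondrial counterpart of eEF1A, had 474, 449 and 400.04 CPM in NC and 341, 378 and 331 CPM in knockdown libraries, a log2 fold change of -0.33 (edgeR adjusted p = 0.0202). The translocase GFM1 had 0.014 (95% interval -0.20 to 0.22), and the initiation factors MTIF2 and MTIF3 had 0.22 and 0.29, without passing the test. MTRF1, a release factor related to MTRF1L, had 0.67 (edgeR adjusted p = 0.0858), and TSFM, the exchange factor for TUFM, had -0.28 (edgeR adjusted p = 0.596).

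Counts on the named pseudogenes of a few members were not negligible. They amounted to 8.37% to 14.9% of the parent's counts for EIF1AX, 5.29% to 9.20% for EIF4B, 5.54% to 7.51% for EIF4A1 and 6.48% to 7.67% for EIF2S2. For EIF3L the pseudogene counts were 0.0421% to 0.124% of the parent's.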
